A study of Homo sapiens with 3 samples.

Results

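A set of 10 genes that mark a cell as epithelial or mesenchymal was followed in A549, a cell line established from a human lung adenocarcinoma, through 1 array per condition. The members are CDH1, CDH2, NECTIN4, KRT7, KRT8, KRT18, KRT19, VIM, SNAI2 and ZEB1, and they were found by matching the transcript accession of each probe to a gene symbol. They make up 10 of the 22435 named genes and are measured by 15 of the 58191 probes with a value on every array. Control cells received 0.1% DMSO, a second culture received cordycepin, an adenosine analog, at 60 μg/mL and another received 100 μg/mL cordyceps, all for 48 h. Per the labels, nicotinamide, troglitazone and zinc sulfate were in the medium of every culture, so each comparison is made on that background. What the cordyceps preparation contained is not given in the sources used here.

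Epithelial cells hold together through E-cadherin, encoded by CDH1, and nectins, and they carry a keratin network made of pairs of type I and type II keratins. Mesenchymal cells use N-cadherin, encoded by CDH2, and a vimentin network, encoded by VIM. The factors SNAI2 and ZEB1 are known to repress CDH1 by binding E-box sequences, and a change from the first state to the second is called epithelial-mesenchymal transition. Carcinoma lines often express genes of both kinds.

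Each value is the processed Cy3 signal of a probe, and a comparison is a log2 ratio after each array was scaled to its 75th percentile. With 1 array per condition (n = 1) neither a replicate error nor a p-value can be given. The precision of each value is limited by this number of arrays. The 2 brightest probes of the same gene gave a spread of 0.26 for a single log2 ratio of cordycepin over control (3675 genes). For cordyceps over control it was 0.20 (3418 genes). This spread is a robust SD, scaled from the median absolute difference between the probes, so genes whose probes disagree strongly hardly enter it. The error model of the scanner software gave 0.20 to 0.27 for the member probes that were measured. A gene was called when its brightest probe differed at least 2-fold. The arrays are of bulk RNA, in which fewer cells carrying a transcript and less transcript per cell cannot be told apart. A corner of the cordyceps array, the spots beyond 5/8 of the rows and 0.5 of the columns, carries a local artefact: the local background was outlying at 11.2% of its spots, compared with 3.16% elsewhere on that array and 0% of the corner on the other arrays. Of the member probes, 2 lie in that corner, 1 of CDH2 and 1 of ZEB1.

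The epithelial markers EPCAM, CDH1, KRT8, KRT18 and KRT19 were all well above background on all 3 arrays. Their summed signals, before scaling, were 289123, 324904 and 206372 on the control, cordycepin and cordyceps arrays, of which the brightest KRT18 probe alone gave 240731, 264983 and 175618, while EPCAM was lower with cordycepin. Of 7 fibroblast markers COL1A1 alone was well above background, and their summed signal was 386, 302 and 261. Of the leukocyte markers, PTPRC, with signals of 99.5, 71.8 and 72.9 by its brightest probe, and CD14, with 3387, 1559 and 2183, were well above background on all 3 arrays, and CD3E was not on any. Among 5 endothelial markers VWF and CDH5 were well above background on the control and cordycepin arrays and none on the cordyceps array. The summed signal of the 5 was 107, 116 and 110. The lowest signal of probes well above background was 18.6, 21.8 and 34.5 on these arrays. Whether other cells contributed to the values was not tested. Among the members, 9 of 10 genes and 14 of 15 probes were well above background on every array, including VIM, CDH2 and ZEB1 beside CDH1 and the keratins. SNAI2 was not.

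NECTIN4 encodes a nectin of adherens junctions. Among the 5 members with a RefSeq promoter window, NECTIN4 and ZEB1 are those with the E-box that SNAI2 and ZEB1 bind. No window was available for CDH1, KRT7, KRT18, KRT19 or SNAI2, so the site was not searched there. The windows run from 250 bases before to 50 bases after a transcript start (GRCh38.p14), and the table lists them for CDH2, NECTIN4, KRT8, VIM and ZEB1, 5 of the 10 members. The motif searched was CAGGTG or CACCTG, the same site read on either strand and a special case of the general E-box CANNTG. It occurs in 20.6% of the 35116 windows of all genes, and CANNTG in 68.7%. These shares are counted by window, and ZEB1 with 7 windows had more places for a match than the other members. The number of members with a site is therefore not comparable with them. The NECTIN4 window has 1 CAGGTG or CACCTG site, which begins 38 bases before the start. ZEB1 has 7 listed starts, 2 of whose windows hold 4 sites between them, and the windows of KRT8 and VIM and both windows of CDH2 hold none. The windows of KRT8 and VIM may be those of alternative starts. A match is a description of these letters alone. Shown are the NECTIN4 window, since this gene had the largest difference among the members, and the ZEB1 window with the most sites, with CAGGTG or CACCTG in capitals. Both are written 5′ to 3′ on the gene's strand, the minus strand at chr1:161089509-161089808 for NECTIN4 and the plus strand at chr10:31318966-31319265 for ZEB1.
NECTIN4: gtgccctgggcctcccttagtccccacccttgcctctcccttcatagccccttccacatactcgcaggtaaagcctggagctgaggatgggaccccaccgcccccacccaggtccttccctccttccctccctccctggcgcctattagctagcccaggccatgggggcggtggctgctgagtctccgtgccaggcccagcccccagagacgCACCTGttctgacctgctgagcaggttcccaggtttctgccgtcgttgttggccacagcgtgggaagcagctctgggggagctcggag
ZEB1: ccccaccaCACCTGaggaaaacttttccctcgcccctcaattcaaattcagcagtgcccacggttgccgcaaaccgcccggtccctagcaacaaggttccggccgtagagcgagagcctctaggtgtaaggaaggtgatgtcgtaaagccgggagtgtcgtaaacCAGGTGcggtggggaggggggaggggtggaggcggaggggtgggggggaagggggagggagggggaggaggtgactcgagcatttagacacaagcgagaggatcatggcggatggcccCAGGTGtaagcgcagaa

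Between the control and cordycepin arrays, NECTIN4 was the member called by its brightest probe. The signal was 70.7 in control cells, 654 in cordycepin-treated cells and 91.6 in cordyceps-treated cells, well above background on all 3. The cordycepin array is thus high and the other arrays lie close together. The ratio of cordycepin over control was 10.7-fold (log2 ratio 3.42, error model 0.23), and a change of this size or more, in either direction, was seen at 0.069% of measured probes. NECTIN4 has a single probe, so no second probe bears on it. Over the 14 alternative ways of processing, its log2 ratio ran from 2.50, with normexp background correction, to 3.47, and it was at least 2-fold in each of them. With cordyceps the log2 ratio was 0.37, under a 2-fold change.

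Among the 9 members measured in this comparison, NECTIN4 alone was called higher and none was called lower, which is 11.1%, compared with 9.52% of the 15917 named genes tested in either direction (5.95% higher and 3.57% lower). A single call among 9 genes is near that background. The members were chosen with earlier results of these data known, so their shares and the place of NECTIN4 among all probes are descriptive. The median log2 ratio of the members was 0.28, compared with -0.05 over all named genes measured on both arrays. In the comparison of cordyceps with control, KRT19 alone was called, lower, again 11.1% of 9, compared with 7.35% of 15602 named genes (4.19% higher and 3.15% lower), and the median was 0.04 compared with -0.11. By probe, 2 of the 14 member probes measured on both arrays reached 2-fold with cordycepin, 1 of NECTIN4 and 1 of KRT8. With cordyceps 1 of 14 did. Among all probes well above background on at least 1 array compared, 10.7% did with cordycepin and 8.41% with cordyceps, bounds included. Of probes measured on both arrays, 6.54% changed at least as much as that KRT8 probe with cordycepin.

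**Figure D1:**
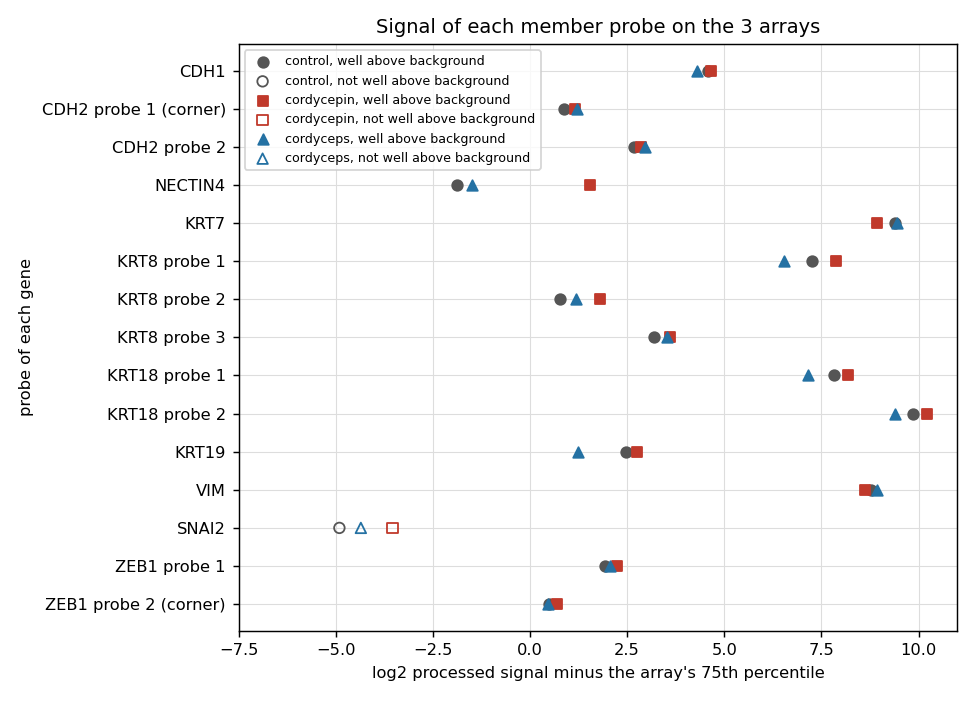
Signal of each of the 15 member probes on the control, cordycepin and cordyceps arrays, as log2 processed signal minus the array's 75th percentile, with 1 array per condition; filled symbols are well above background and open symbols are not. Levels are to be read along a row, since probes differ in brightness: the 3 symbols of a row lie close together for CDH1, CDH2, VIM and ZEB1, the cordycepin symbol of NECTIN4 and the cordyceps symbol of KRT19 stand apart, and SNAI2 is open on every array.

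The cadherins differed little between the arrays. CDH1 is represented by 1 probe printed 10 times, with mean signals of 6231 in control, 5658 in cordycepin-treated and 5081 in cordyceps-treated cells. Its spots varied by an SD of 0.12, 0.065 and 0.055 on the log2 scale. After scaling, the log2 ratios were 0.07 with cordycepin and -0.30 with cordyceps, both under a 2-fold change. The sign with cordycepin depended on the scaling, since median scaling gave -0.19.

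CDH2, which encodes N-cadherin, has 2 probes. The brighter one read 1668, 1638 and 2033 on the control, cordycepin and cordyceps arrays, and the one in the artefact corner read 476, 497 and 603. The probes gave similar values. Their log2 ratios were 0.19 and 0.28 with cordycepin and 0.29 and 0.34 with cordyceps, so the corner probe gave nearly the same ratio on the cordyceps array as the probe outside it. Median scaling turned the brighter probe to -0.08 with cordycepin.

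VIM, the intermediate filament gene of mesenchymal cells, read 113086 in control, 89067 in cordycepin-treated and 126516 in cordyceps-treated cells. Its log2 ratios, -0.13 and 0.16, were within the spread of a single probe. Other type III filament genes were looked up beside it. PRPH, which encodes peripherin of neurons, rose 3.73-fold with cordyceps, from a signal of 1307 to 4880, and had a log2 ratio of 0.50 with cordycepin. DES, the filament gene of muscle, gave 0.16 and -0.20, and GFAP was not well above background on any array.

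The simple-epithelial keratins KRT8, KRT18 and KRT19 were slightly higher with cordycepin and lower with cordyceps by their brightest probes. With cordycepin KRT8 alone of them lay beyond 2 times the single-probe spread (0.52), and with cordyceps all of them did (0.41). None reached 2-fold with cordycepin. KRT18, the type I partner of KRT8, read 240731 in control, 264983 in cordycepin-treated and 175618 in cordyceps-treated cells by its brightest probe and 59197, 65384 and 37208 by the other. The log2 ratios were 0.35 and 0.36 with cordycepin and -0.46 and -0.67 with cordyceps.

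KRT8, the type II partner, has 3 probes. The brightest read 39643, 52417 and 24320, the next 2373, 2747 and 2999 and the dimmest 441, 776 and 595 on the control, cordycepin and cordyceps arrays. With cordycepin all 3 lay above control, at log2 ratios of 0.62, 0.43 and 1.03, and the dimmest alone passed 2-fold, at 2.04-fold. With cordyceps they disagreed in direction, at -0.71, 0.34 and 0.43, so that the direction of KRT8 there depends on the probe, and the median over the probes was 0.34. The middle probe was designed for a non-coding transcript of the gene. KRT8 and KRT18 also have many processed pseudogenes, and whether these probes bind only the parent genes was not tested.

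KRT19, a type I keratin of simple epithelia, read 1451 in control, 1523 in cordycepin-treated and 612 in cordyceps-treated cells by its single probe, which lies outside the artefact corner. The cordyceps array is low and the other arrays are alike. KRT19 fell 2.37-fold with cordyceps (log2 ratio -1.25, error model 0.20), and a change of this size or more was seen at 3.16% of measured probes. Under median scaling the log2 ratio was -0.98, just under a 2-fold change, and with the corner left out and the arrays rescaled the call was kept. With cordycepin the log2 ratio was 0.28.

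KRT7, a type II keratin of glandular and airway epithelia, differed from them in sign with cordycepin. It read 175892 in control, 109656 in cordycepin-treated and 181306 in cordyceps-treated cells, for log2 ratios of -0.47 and 0.04. The KRT7 ratio with cordycepin was below 0 under all 14 alternatives, while those of KRT8, KRT18 and KRT19 were above 0 under all of them. The alternatives reuse the same arrays, and those that change only the detection rule or the threshold leave a ratio as it is. Under median scaling KRT18 and KRT19 came to 0.09 and 0.02. The KRT7 ratio of -0.47 lay within 2 times the single-probe spread (0.52), as did those of KRT18 and KRT19. None of these 4 keratins was called with cordycepin at 2-fold by its brightest probe.

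**Figure D2:**
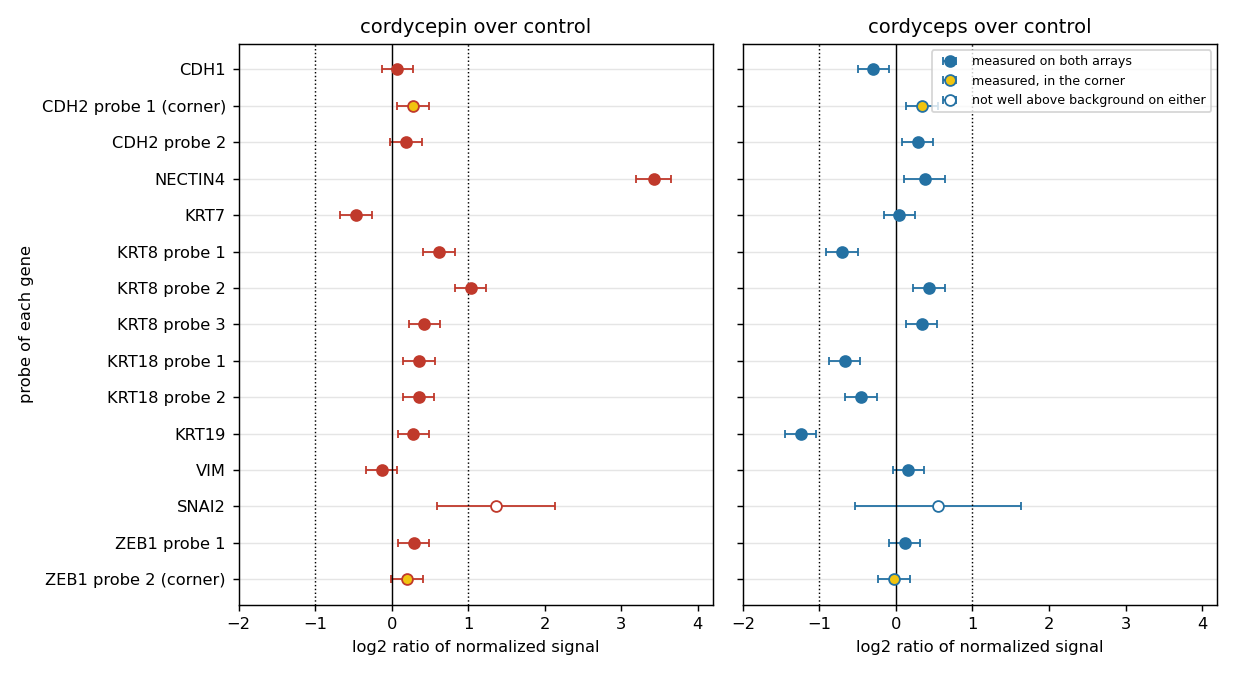
Log2 ratio of each member probe for cordycepin over control (left) and cordyceps over control (right), with bars for ± the error model of the scanner software and dotted lines at a 2-fold change; yellow marks the 2 probes in the artefact corner and white the SNAI2 probe, not well above background. NECTIN4 lies at 3.42 on the left and KRT19 at -1.25 on the right, and the 3 KRT8 probes lie on both sides of 0 on the right.

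Of the factors, ZEB1 differed little. Its brighter probe read 1000, 1052 and 1082 and its corner probe 368, 365 and 361 on the control, cordycepin and cordyceps arrays. The log2 ratios were 0.29 and 0.20 with cordycepin and 0.11 and -0.03 with cordyceps. SNAI2, which encodes Slug, gave signals of 8.68, 19.2 and 12.7 on the control, cordycepin and cordyceps arrays and was not well above background on any of them, so no fold is given. The lowest signals of probes well above background were 18.6, 21.8 and 34.5.

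**Figure D3:**
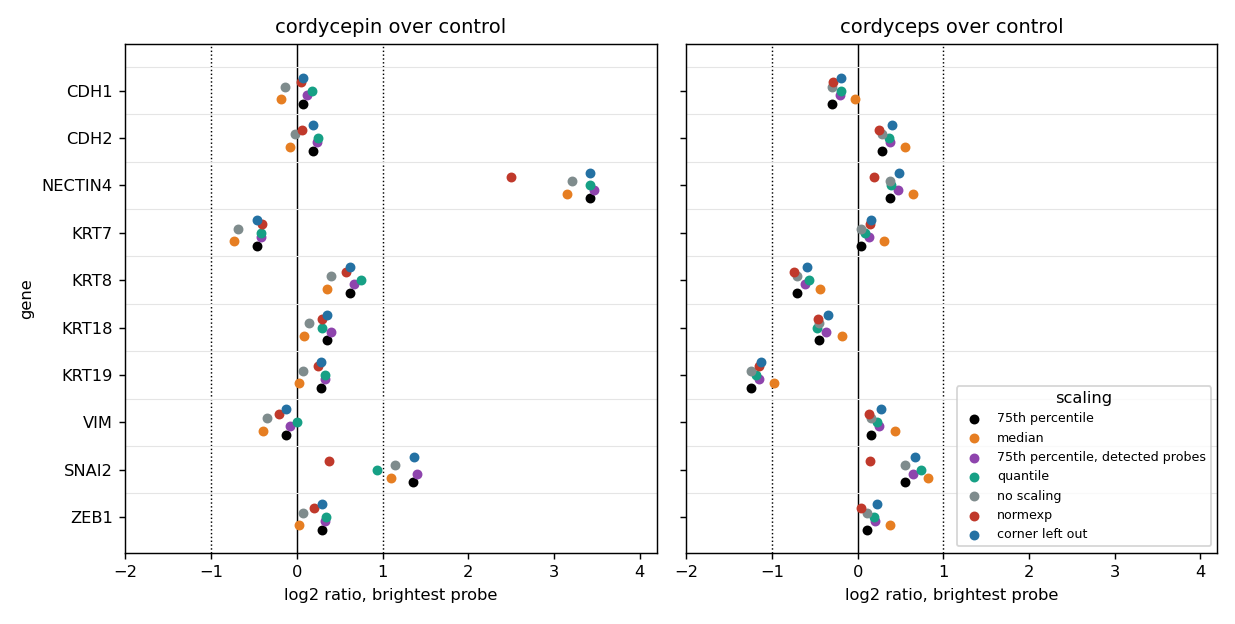
Log2 ratio of the brightest probe of each member under 7 ways of scaling or background correction, for cordycepin over control (left) and cordyceps over control (right), with dotted lines at a 2-fold change. NECTIN4 stays beyond 2-fold on the left under each, KRT19 crosses the line on the right under median scaling alone, and CDH1 and CDH2 lie on both sides of 0 on the left.

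The other regulators of the transition were read from the same arrays. SNAI1, which encodes Snail, had log2 ratios of 0.59 with cordycepin and -0.22 with cordyceps, and TWIST2 gave -0.30 and -0.77 by its brightest probe. The other TWIST2 probe, dim at 34.4 in control cells, gave 0.19 with cordycepin and was not well above background with cordyceps. TWIST1 gave -0.25 and -0.59 by its brightest probe, and its other probe was not well above background. SNAI3 rose 3.24-fold with cordycepin, from a dim 26.2 to 73.2. ZEB2, a paralog of ZEB1, has probes in and outside the artefact corner. Its brightest probe lies in it and read 37.6 on the control, 23.3 on the cordycepin and 528 on the cordyceps array, 14.1-fold higher with cordyceps and not well above background with cordycepin, whereas a probe outside the corner read 35.9, 44.9 and 48.6, log2 ratios of 0.54 with cordycepin and 0.44 with cordyceps.

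Of a list of 43 other mesenchymal genes, 29 were well above background on at least 1 array of the cordycepin comparison. With cordycepin 2 rose and 4 fell, 20.7% called beside the 9.52% of all named genes, with a median log2 ratio of -0.18. Of the 26 genes measured on both arrays, 5 were called, 2 higher and 3 lower. The gene lists here and below were chosen with earlier results of these data known, so their shares are descriptive. NT5E, which encodes the ecto-nucleotidase CD73, fell 3.71-fold, from 633 to 147, and its second probe gave -1.79 on the log2 scale. CD44, the hyaluronan receptor, fell 2.82-fold, from 46714 to 14296. Its other, dim probe gave -0.15. FN1, which encodes fibronectin, fell 2.26-fold, from 537 to 205. CDH6, which encodes K-cadherin, was not well above background with cordycepin and was at least 4.38-fold lower there. The other rise was that of CTNNAL1, alpha-catulin, 2.93-fold and 1.61 on the log2 scale by its second probe. With normexp background correction the list had 3 calls.

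With cordyceps, 3 of 28 mesenchymal genes were called, 10.7% beside 7.35%, with a median log2 ratio of -0.25. They were ZEB2, S100A4, 3.61-fold lower with a single probe in the corner, and TGFB2, which encodes a ligand that induces the transition, 2.22-fold lower outside it. With the corner left out 1 call remained, and median scaling gave 2 higher and 1 lower in place of 1 higher and 2 lower.

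Of 42 further epithelial genes, 36 were tested with cordycepin, of which 3 rose and 5 fell, 22.2% called beside the 9.52% of all named genes. The median log2 ratio was -0.04. EPCAM, the epithelial adhesion molecule, read 1066 in control, 323 in cordycepin-treated and 742 in cordyceps-treated cells and fell 2.85-fold with cordycepin. The anchoring filament gene LAD1 fell 3.44-fold and the receptor gene ERBB3 3.13-fold, and the second measured probe of ERBB3 gave -0.82 on the log2 scale. PATJ, a scaffold of the apical Crumbs complex, fell 3.09-fold and the mucin gene MUC1 2.93-fold. The rises were those of PRSS8, which encodes the protease prostasin, at least 5.01-fold, GRHL1, a grainyhead factor, 2.90-fold, and SPINT1, a protease inhibitor gene, at least 2.35-fold. PRSS8 and SPINT1 were not well above background in control cells. The PRSS8 bound equals its measured ratio, since its control signal, 20.9, lay above the lowest detected signal there, 18.6. Of the 34 genes measured on both arrays, 6 were called, 1 higher and 5 lower. Median scaling gave 2 higher and 7 lower, and normexp 1 higher and 3 lower.

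With cordyceps 3 of 35 epithelial genes were called, 8.57% beside 7.35%, with a median of 0.00 on the log2 scale. PRSS8 was at least 2.66-fold higher, MUC1 fell 2.22-fold and AP1M2, an adaptor subunit of polarized sorting, fell 2.21-fold. Median scaling turned these counts to 3 higher and 0 lower. Both comparisons share the control array, on which PRSS8 was not well above background.

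None of the catenin partners of CDH1 reached a 2-fold change. CTNNB1, which encodes beta-catenin, gave 0.03 with cordycepin and -0.03 with cordyceps on the log2 scale. CTNNA1, alpha-catenin, gave -0.75 and 0.07 by its brightest probe and 0.02 and 0.13 by the other. CTNND1, p120-catenin, gave -0.16 and -0.51 by its brightest probe and 0.58 and -0.60 by the other, and JUP, plakoglobin, -0.20 and -0.56 by a corner probe. Of 28 partner and desmosome genes, 25 were tested with cordycepin and 1 was called, 4% beside 9.52%, and none of 24 was called with cordyceps. The call was NECTIN1, measured by a corner probe and at least 2.26-fold higher with cordycepin, at a signal of 36.4 against 17.7 in control cells, where it was not well above background. Of the other nectins, NECTIN2 and NECTIN3 gave -0.58 and -0.48 with cordycepin by their brightest probes, beside 3.42 for NECTIN4. The brightest NECTIN2 probe lies in the corner, and the one outside it gave -0.02. Median scaling gave 0 higher and 2 lower partner genes with cordycepin.

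Among 30 other keratin genes, 13 were tested with cordycepin, of which 4 rose and 1 fell, 38.5% called beside the 9.52% of all named genes. KRT6B and KRT14 were tested through the cordycepin array alone, where they are high, so their calls raise that share. Of the 11 genes measured on both arrays, 3 were called, 2 higher and 1 lower, while 6.54% of all probes so measured changed at least 2.04-fold. KRT4, a keratin of stratified mucosa, read 113 in control, 957 in cordycepin-treated and 35.5 in cordyceps-treated cells. KRT4 was 9.82-fold higher with cordycepin and at least 3.19-fold lower with cordyceps, where it was not well above background. The KRT4 bound equals its measured ratio, since 35.5 lay above the lowest detected signal on the cordyceps array, 34.5. It is the single call among 11 keratins tested with cordyceps, 9.09% beside 7.35%.

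KRT6B, a keratin of activated epidermis, read 5.33, 115 and 7.75 on the control, cordycepin and cordyceps arrays for a ratio of at least 7.15-fold with cordycepin. The probes of its close paralogs KRT6A and KRT6C were not well above background on any array, and the probes were not tested for separating them. KRT14, a basal keratin, was at least 2.89-fold higher by a probe that read 4.39 and 46.4, while its other probe was not well above background on any array. KRT15, another basal keratin, rose 2.24-fold, from 617 to 1190, with a log2 ratio of -0.98 for cordyceps. With median scaling or no scaling, 3 keratins were called higher in place of 4, and KRT15, the smallest of the rises, is the one under 2-fold there. KRT20, an intestinal and urothelial keratin, fell 2.22-fold with cordycepin. KRT5, the usual partner of KRT14, and the basal factor gene TP63 were not well above background on any array. The summed signal of 5 basal and squamous markers, these among them, was 24.9, 76.8 and 38.5, and the part of such cells in the keratin values was not tested.

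**Figure D4:**
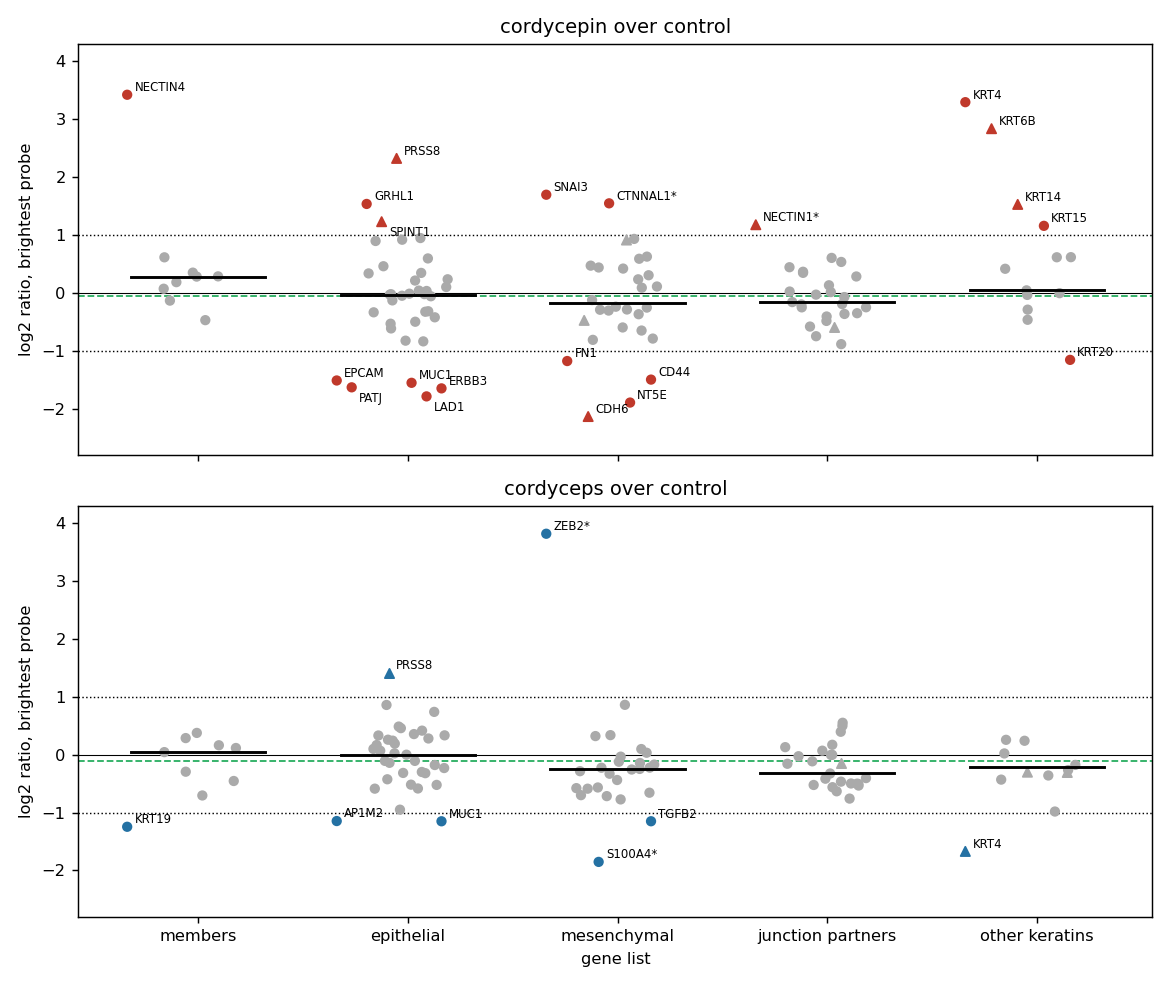
Log2 ratio of the brightest probe of each gene in 5 gene lists, for cordycepin over control (top) and cordyceps over control (bottom). Coloured, named points changed at least 2-fold (dotted lines), triangles are bounds for genes well above background on 1 of the arrays compared, an asterisk marks a probe in the artefact corner, black bars are list medians over genes measured on both arrays and the green dashed line is the median of all named genes; called genes lie on both sides of 0 in the epithelial and mesenchymal lists.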

How the data were processed

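RNA of the 3 cultures was hybridized to 1 Agilent array each. The methods name Cy3 for vehicle and Cy5 for cordycepin, whereas the labels and the scanner files give Cy3 alone on each array, so ratios were taken between arrays. The authors deposited scanner files from Feature Extraction 11.5.1.1, whose intensity values were background-subtracted and detrended within the array and not scaled between arrays; the design build is hg19. The deposited value table holds the same intensity values, not log-transformed. The methods name GeneSpring for normalization and fold changes.

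Control and outlier spots were left out, log2 signals were reduced by each array's 75th percentile, and replicate spots were averaged per probe. Detection required the scanner's flag for signal well above background on 50% or more of a probe's spots. A gene took its brightest probe over the 3 arrays. A difference was called at 2-fold, measured where both arrays detected the probe. Where 1 array did, it was a bound (at least N-fold), taken against the lowest detected signal of the dim array or, if higher, the signal measured there. Symbols came from RefSeq accessions (GRCh38.p14), which matched 31104 of 58201 probes, and no gene coordinates were taken across builds. Of the series' probes 42.1% to 49.0% were detected per array, and no spot was saturated. All arrays lie on 1 slide and were scanned together.

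The members and gene lists were chosen with earlier results of these data known. A further leukocyte marker is not reported here. Named are the members, fixed partners and regulators (CTNNB1, CTNNA1, CTNND1, JUP, SNAI1, ZEB2, TWIST1, TWIST2, EPCAM and FN1) and, per list and comparison, up to 4 called genes with the largest change; other called genes, PRPH, DES, GFAP, TP63 and the other nectins and keratins were named after their values were seen. The alternatives were other scalings, normexp with an offset of 50 on median signals, outlier spots kept, the deposited table, other detection rules, thresholds of 1.5-fold and 3-fold, the median over probes and the corner left out. The calling step was tested on simulated data, with changes well beyond 2-fold planted in bright probes alone. Changes near 2-fold and bounds of dim probes were not covered. Python 3.11.15, numpy 2.4.6, pandas 2.3.3, R 4.3.3 and limma 3.58.1 (normexp) were used.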

Additional observations from a re-analysis of the deposited data

How the results depend on the processing

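NECTIN4 was called with cordycepin under all 14 alternatives and KRT19 with cordyceps under 12 of 14, all but median scaling and the 3-fold threshold. No called member changed sign. Median scaling moved the median log2 ratio of all measured probes by -0.26 with cordycepin and 0.27 with cordyceps, no scaling moved that with cordycepin by -0.21, and leaving out the corner moved that with cordyceps by 0.12. Over all probes, 2133 were called higher and 1092 lower with cordycepin. These became 679 and 394 with normexp, 4649 and 3557 at 1.5-fold and 824 and 280 at 3-fold. With detection on both arrays they became 1085 and 749, and without a filter 5669 and 2959. With cordyceps, 1523 higher and 938 lower became 976 and 349 with normexp. They became 2657 and 3744 at 1.5-fold and 967 and 160 at 3-fold. Counts of called genes in the lists moved by over 1.5 times as follows. The members called with cordycepin, 1, became 2 without a detection filter or with a positive and significant signal, which added SNAI2, and 2 at 1.5-fold, which added KRT8; with cordyceps, 1 became 0 under median scaling, 2 at 1.5-fold and 0 at 3-fold. Epithelial genes with cordycepin, 8, became 4 with normexp, 15 at 1.5-fold and 4 at 3-fold; with cordyceps, 3 became 0 with normexp, 7 at 1.5-fold and 0 at 3-fold. Mesenchymal genes with cordycepin, 6, became 3 with normexp, 14 at 1.5-fold and 3 at 3-fold; with cordyceps, 3 became 9 at 1.5-fold and 1 without the corner. Junction partner genes with cordycepin, 1, became 2 under median scaling, 0 with normexp, with detection on both arrays, at 3-fold or without the corner, 3 without a filter or with a positive and significant signal and 5 at 1.5-fold; with cordyceps, 0 became 2 at 1.5-fold. Other keratin genes with cordycepin, 5, became 3 with normexp (3 higher, 0 lower) or detection on both arrays and 2 at 3-fold; with cordyceps, 1 became 0 with normexp or detection on both arrays and 2 without a filter, with a positive and significant signal or at 1.5-fold. Filters, thresholds and the corner change by construction what is counted; for normexp the cause was not tested. The dim probes of SNAI2, NECTIN1, KRT6B and KRT14 are limited by signal over background. No paired analysis was possible because each condition has 1 array.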
